A study of Mus musculus with 24 samples.

Results

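Genes of the brain endothelium and of the blood-brain barrier were followed in RNA sequencing libraries of the mouse hippocampal dentate gyrus. The 33 genes were chosen by name, as a list of junction proteins, receptors, transporters, transcription factors and secreted proteins of brain endothelial cells. The rule that picks them uses no measured value, but the list was chosen with earlier results of these data known. They make up 33 of the 26667 genes in the count table. All 33 passed the filter on low counts that kept 18286 genes.

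The study asked how voluntary running and BCI-838, a pro-drug taken by mouth whose active form blocks mGluR2 and mGluR3, a pair of metabotropic glutamate receptors, act in APP/PS1 mice, a transgenic model of amyloid deposition. There were 5 libraries from WT mice (C57BL6/J), 5 from APP/PS1 mice with neither treatment (controls), 4 from APP/PS1 mice given BCI-838 by mouth at 5 mg/kg a day for 1 month, 5 from APP/PS1 mice with free access to a running wheel for 1 month (exercise) and 5 from APP/PS1 mice with both (combined). All groups but WT carry the APP/PS1 transgenes. Vehicle is named in the design text without the groups that got it, and no source used here gives the age of the mice or the promoter of the transgenes. Counts summed to between 48656360 and 64632882 per library.

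Endothelial cells of brain capillaries are sealed by tight junctions built on claudin-5 and have little vesicle traffic. They carry transporters that bring in glucose, amino acids and lipids and pump out foreign compounds. Wnt ligands from neurons and astrocytes act through beta-catenin and Lef1 to keep this barrier state, and VEGF and angiopoietin receptors govern vessel growth and stability. The Sox17 group of Sox factors and the ETS factors Erg and Fli1 set endothelial identity. Endothelial cells are a small share of the tissue, and in bulk RNA fewer cells of a type and less RNA per cell cannot be told apart.

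ETS factors bind a short core, GGAA, that many endothelial promoters hold, so the 250 bases before RefSeq's transcription start are shown for Itm2a and Slco1a4, whose interaction of drug and wheel had the smallest p of the members, and for Cldn5, the member with the highest level per length. Capitals mark the letters GGAAG on either strand (CTTCC on the strand shown), and each sequence runs 5′ to 3′ on the gene's own strand. The core GGAA followed by another base was neither marked nor counted, so the matches below are not a count of all ETS cores. The sequences are from RefSeq on GRCm38.p6, and 20 of the 33 members matched an entry there. The others were Pecam1, Cdh5, Ly6a, Sox7, Sox17, Sox18, Esam, Vwf, Nos3, Ramp2, Podxl, Fli1 and Foxq1. Itm2a lies at chrX:107403361-107403610 on the minus strand, Slco1a4 at chr6:141856221-141856470 on the minus strand and Cldn5 at chr16:18776597-18776846 on the plus strand.
Itm2a: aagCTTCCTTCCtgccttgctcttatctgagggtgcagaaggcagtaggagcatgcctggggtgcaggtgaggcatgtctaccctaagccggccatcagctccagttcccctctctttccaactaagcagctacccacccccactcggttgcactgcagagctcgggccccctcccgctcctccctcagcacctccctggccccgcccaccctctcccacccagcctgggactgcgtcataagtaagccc
Slco1a4: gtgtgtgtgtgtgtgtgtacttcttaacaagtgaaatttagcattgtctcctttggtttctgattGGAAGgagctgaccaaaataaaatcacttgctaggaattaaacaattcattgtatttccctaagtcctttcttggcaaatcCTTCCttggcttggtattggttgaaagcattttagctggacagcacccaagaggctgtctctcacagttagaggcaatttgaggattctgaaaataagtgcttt
Cldn5: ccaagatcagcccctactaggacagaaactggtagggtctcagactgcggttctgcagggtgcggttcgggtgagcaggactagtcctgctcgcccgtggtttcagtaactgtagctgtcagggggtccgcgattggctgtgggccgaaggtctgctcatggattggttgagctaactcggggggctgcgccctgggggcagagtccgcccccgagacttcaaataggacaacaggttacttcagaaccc
The Itm2a window held 2 matches that overlap in 1 base, the Slco1a4 window held 2 and the Cldn5 window held 0. The last bases of the Itm2a window lie inside the GENCODE transcript. GGAAG was found in 62.1% of the 29 windows of members and in 64.1% of all 32851 windows of this length in the table, so its share among the members was close to that of promoters in general. A match in these letters is a description of the sequence.

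Levels were compared between genes per kb of annotated exon, from counts scaled to library size (CPM). Cldn5, the main tight junction strand protein of the barrier, had the highest mean over all libraries with 23.5 CPM per kb, next to Itm2a, a membrane protein common in brain endothelium, with 22.7. Ly6c1 (16.4 CPM per kb) and Ly6a (13.5), which are GPI-anchored surface proteins of mouse endothelium, and Slc2a1, the GLUT1 glucose transporter (16.1), came next. The organic anion and thyroid hormone carriers Slco1c1 (8.90 CPM per kb) and Slco1a4 (7.14) followed. The low end was held by Lef1, the nuclear partner of beta-catenin (1.23 CPM per kb), Emcn, a sialomucin of capillaries and veins (0.879), Fli1 (0.847) and Sox7 (0.528). Cldn5 and Itm2a differed by less than their spread within groups, since the SD within groups was 21.3% of the mean for Cldn5 and 12.1% for Itm2a. Neighbours further down, such as Ly6c1 and Slc2a1, Eng and Cd34, or Tek and Flt1, were as close. Slc2a1 and Slco1c1 are also made by astrocytes, and Ly6c1, Ly6a and Abcb1a have close paralogs with which reads could be shared.

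**Figure D1:**
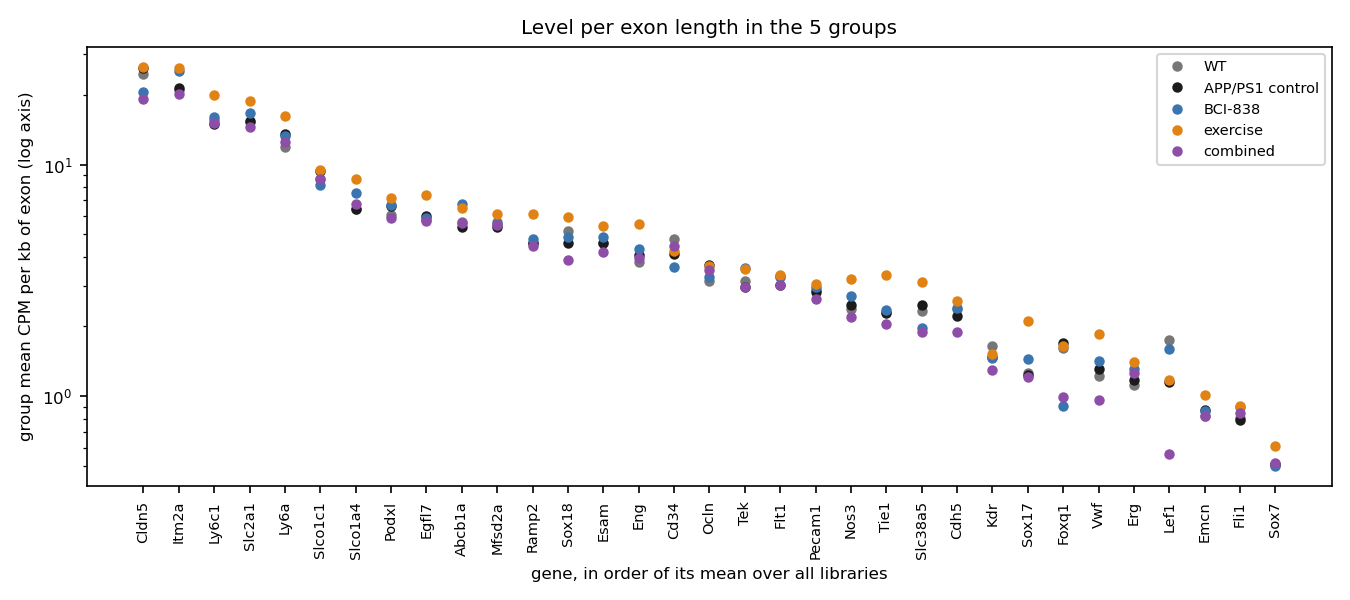
Mean level of each member in the 5 groups, in CPM per kb of exon on a log axis, with genes in the order of their mean over all libraries. Cldn5 and Itm2a lead and Sox7 is lowest, and the exercise points are the highest for 26 of the 33 genes.

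Exercise libraries had the highest group mean for 26 of the 33 members, and combined libraries had the lowest for 19. Over all 18286 genes tested, exercise was highest for 26.7% and combined was lowest for 26.0%. WT had the highest mean for 3 members, controls for 2 and BCI-838 for 2. The summed level of the 33 genes ran from 571 to 693 CPM in controls, 577 to 709 in BCI-838, 644 to 836 in exercise, 535 to 635 in combined and 596 to 704 in WT libraries, so that exercise and combined libraries did not overlap. Within exercise, replicate 2 was the highest library for 15 members, and replicate 3 was the lowest for 15 and the highest for none. In BCI-838, replicate 1 was the lowest of its group for 21 members and replicate 2 the highest for 19.

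**Figure D2:**
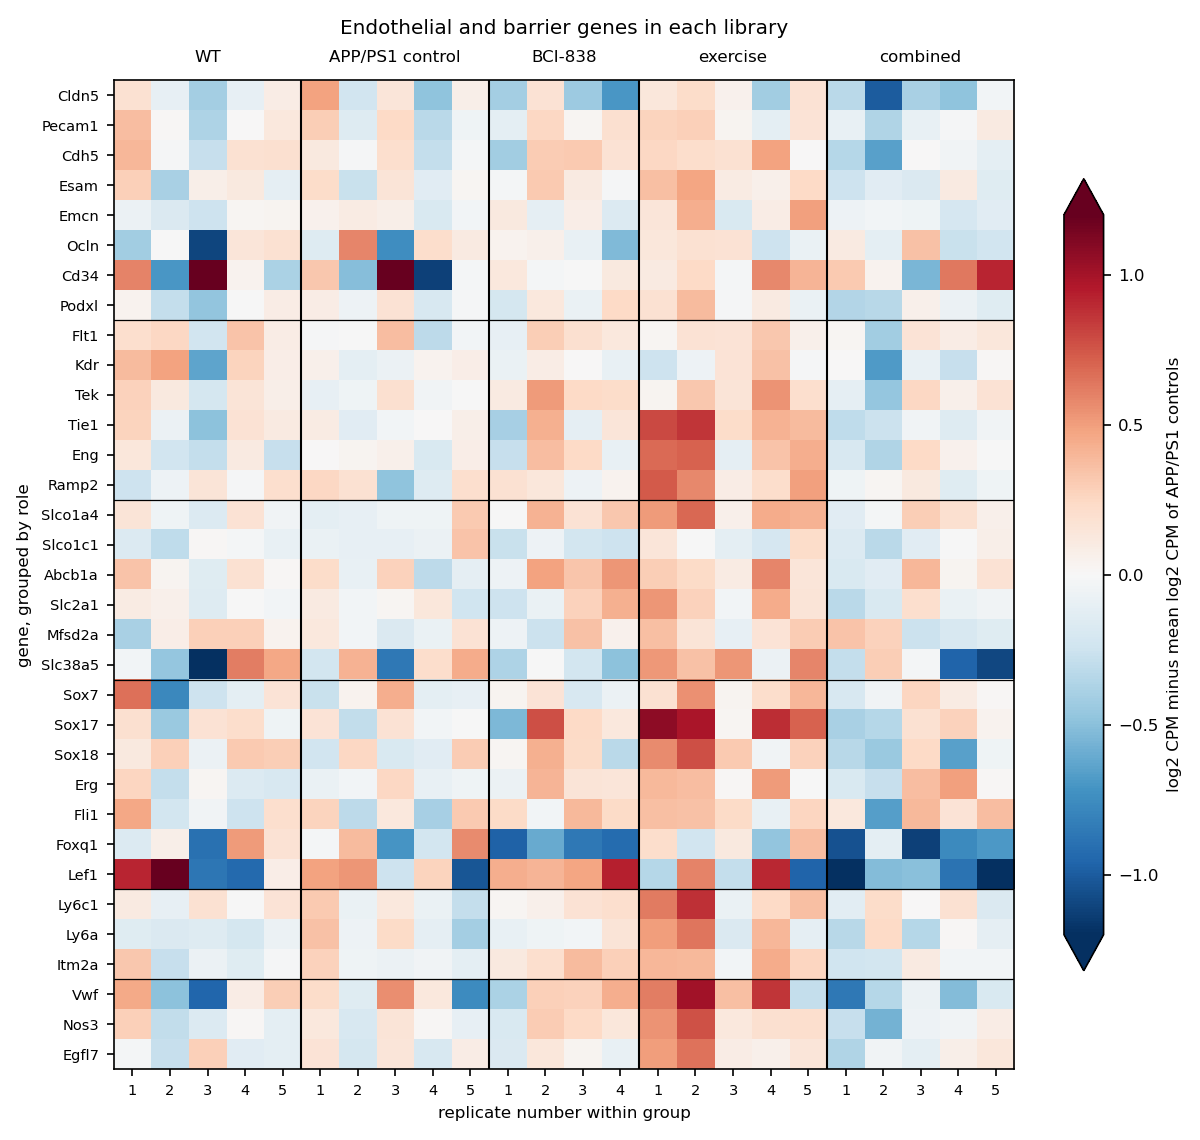
Level of each member in each of the 24 libraries, as log2 CPM minus the mean log2 CPM of the APP/PS1 controls, with genes grouped by role and colours capped at 1.2 in both directions. The exercise columns are mostly red, replicate 3 less so, and Foxq1 is blue in the 4 BCI-838 libraries and the 5 combined ones.

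Markers of other cells of the sampled tissue also differed between libraries, and their levels are set out here for use beside each comparison. Markers of dentate granule neurons were present in every library, with Prox1 between 14.3 and 175 CPM. Choroid plexus RNA, read from Ttr, exceeded 100 CPM in 4 libraries, control replicates 2, 4 and 5 and combined replicate 5, and each comparison was repeated without them. In that repeat, every comparison that uses controls rests on control replicates 1 and 3 only. The 14 markers of mural cells, the pericytes and smooth muscle cells of the vessel wall, summed to 160 to 252 CPM in controls, 190 to 269 in BCI-838, 207 to 290 in exercise and 152 to 205 in combined libraries. Dorsal midbrain transcription factors summed to 38.4 to 81.9 CPM in BCI-838 against 2.65 to 34.2 in combined libraries, and to 3.08 to 61.3 in controls and 4.04 to 81.9 in exercise libraries.

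**Figure D3:**
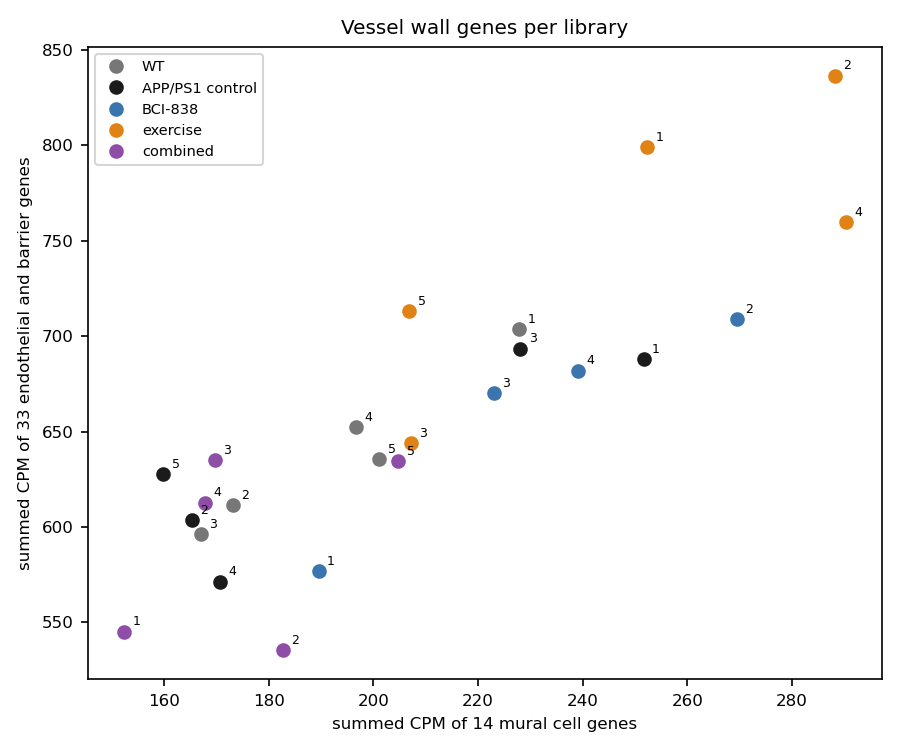
Summed CPM of the 33 endothelial and barrier genes against summed CPM of 14 mural cell genes, 1 point per library with its replicate number. Exercise replicates 1, 2 and 4 lie at the top right and combined replicates 1 and 2 at the bottom.

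Running without the drug, set against APP/PS1 controls, went with higher values for 31 of the 33 members, against 52.8% of all genes, with a median log2 fold change of 0.26. Ocln and Foxq1 were the members not higher. With DESeq2 size factors in place of TMM, 29 members were higher. None of the 33 passed a Benjamini-Hochberg adjusted p of 0.05 over all genes in edgeR's quasi-likelihood test, which called 0.00547% of genes, and none passed in DESeq2 (0.334% of genes) or in limma voom (0%). At an unadjusted p under 0.05 there were 12 members, all higher in exercise, where 2.37% of all genes were past that limit and higher. They were 4 of 6 receptors (Tie1, Eng, Ramp2, Tek), Slco1a4 and Slc2a1 of 6 transporters, Sox17 and Sox18 of 7 transcription factors, Ly6c1, Itm2a, Nos3 and Egfl7. None of the 8 junction and surface genes was among them. Without the 4 libraries with over 100 Ttr CPM, 26 members were higher, the median was 0.175 and 5 members were at an unadjusted p under 0.05, and without exercise replicate 2 there were 7.

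Tie1, an orphan receptor that tunes angiopoietin signalling through its partner Tek, showed the clearest separation. Its levels were 12.0, 10.2, 10.9, 11.3 and 11.8 CPM in control replicates 1 to 5 and 19.5, 20.3, 13.0, 14.96 and 14.6 CPM in exercise replicates 1 to 5. All 5 exercise libraries lay above all 5 controls, and 0.257% of all genes had groups apart in that direction. Tie1 was 1.47-fold higher in exercise (log2 0.55, SE 0.15), with an adjusted p of 0.328 in edgeR. The gene lies at chr4:118471191-118490061 (GRCm38).

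Sox17, a transcription factor of arterial and barrier endothelium at chr1:4490931-4497354, had the largest fold change of the members. It measured 6.56, 4.79, 6.61, 5.73 and 5.87 CPM in controls and 12.4, 11.6, 5.96, 10.9 and 9.60 CPM in exercise libraries. Exercise replicate 3 lay within the controls and the other 4 lay above them all. Sox17 was 1.70-fold higher (log2 0.77, SE 0.21), with an adjusted p of 0.330 in edgeR.

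Slco1a4, an efflux and uptake carrier for organic anions at chr6:141805440-141856199, had the smallest p. Its levels were 37.7, 38.2, 39.4, 39.4 and 50.7 CPM in controls and 58.2, 66.0, 42.7, 55.4 and 54.5 CPM in exercise libraries. Exercise replicate 3 again lay below the highest control, which was replicate 5. The gene was 1.35-fold higher (log2 0.43, SE 0.11), with an adjusted p of 0.327 in edgeR. Ramp2, which pairs with the receptor for adrenomedullin, had 15.2 ± 3.06 CPM (SD, n = 5) in controls and 20.2 ± 3.68 CPM (SD, n = 5) in exercise. Ly6c1 had 25.1 ± 4.03 CPM and 33.6 ± 8.47 CPM in the same groups, and both had an adjusted p of 0.469 in edgeR.

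Eng, a co-receptor for TGF-beta, had 16.5 ± 1.17 CPM (SD, n = 5) in controls and 22.4 ± 4.69 CPM (SD, n = 5) in exercise. Vwf, the von Willebrand clotting factor stored in endothelial cells, had 20.9 ± 6.50 and 29.9 ± 9.37 CPM and was not among the 12.

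A few members had close means in both groups. Cldn5 had 37.1 ± 9.43 CPM (SD, n = 5) in controls and 37.4 ± 6.002 CPM (SD, n = 5) in exercise, and Slco1c1 had 48.8 ± 7.03 and 48.9 ± 5.94 CPM. Ocln, the tight junction protein occludin, had 15.6 ± 4.94 and 15.3 ± 1.93 CPM. Kdr, the main signalling VEGF receptor, had 13.3 ± 0.802 and 13.8 ± 2.22 CPM. Mural markers moved the same way as the members in this comparison, with 13 of 14 higher and a median log2 fold change of 0.33. Oligodendrocyte markers were higher for 8 of 8 (median 0.19), microglia markers for 10 of 10 (0.13) and dorsal midbrain genes for 6 of 6 (0.50). Choroid plexus markers were lower for 11 of 11 (median -4.12) and fibroblast markers for 9 of 10 (-0.32). The part of these cells in the members' differences was not tested.

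**Figure D4:**
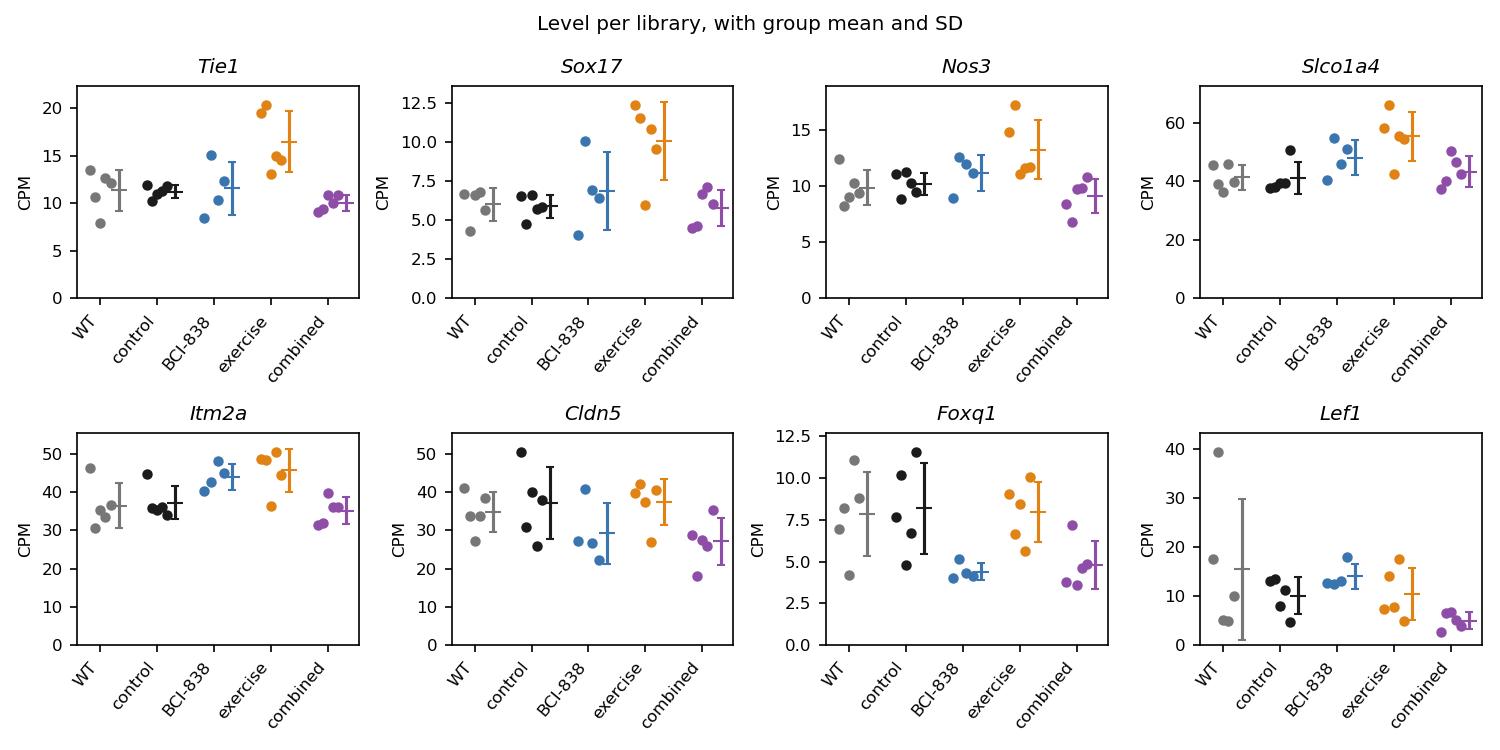
CPM of 8 members in every library, with the group mean and SD to the right of each group's points and axes that start at 0. Tie1 is above the controls in all 5 exercise libraries, and Foxq1 is between 3.99 and 5.15 CPM in the 4 BCI-838 libraries.

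Among runners, the libraries from mice that also had BCI-838 were lower than exercise alone for 32 of the 33 members, against 53.4% of all genes, with a median log2 fold change of -0.36. Cd34 was the exception. The 5 exercise libraries are the same ones set against controls above, so these comparisons are not independent. Against controls, combined libraries had a median log2 fold change of -0.08. edgeR called none of the 33 and 0% of all genes at an adjusted p under 0.05. The members with an unadjusted p under 0.05 numbered 22, all lower, where 8.83% of all genes were past that limit and lower. DESeq2 called 7 members (Tie1, Sox17, Nos3, Vwf, Sox18, Ramp2, Itm2a) among 2.25% of genes, and limma voom with quality weights called 11 (Tie1, Ramp2, Nos3, Sox18, Itm2a, Sox17, Eng, Foxq1, Egfl7, Esam, Ly6c1) among 5.53%, all lower. Without exercise replicate 3, edgeR called 8 members: Tie1, Sox17, Itm2a, Eng, Ly6c1, Ramp2, Nos3 and Slco1a4. Without exercise replicate 2, the members at an unadjusted p under 0.05 fell to 15 and the median to -0.265. The 22 were spread over the roles, with 5 of 8 junction and surface genes, 4 of 6 receptors, 3 of 6 transporters, 4 of 7 transcription factors, all 3 of Ly6c1, Ly6a and Itm2a, and all 3 of Vwf, Egfl7 and Nos3.

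Tie1 again led. Combined replicates 1 to 5 had 9.09, 9.39, 10.9, 10.05 and 10.9 CPM, all below the lowest exercise library at 13.0 CPM. Tie1 was 1.64-fold lower than in exercise alone (log2 -0.71, SE 0.15), with an adjusted p of 0.0947 in edgeR, 0.00466 in DESeq2 and 0.0228 in voom. With a library left out, its adjusted p in edgeR ran from 0.0307 to 0.369. Tie1, Nos3 and Cdh5 were the members whose groups did not overlap, and 0.864% of all genes had groups apart in that direction. Cdh5, the VE-cadherin of endothelial adherens junctions, had 10.9 ± 1.30 CPM (SD, n = 5) in exercise and 7.98 ± 1.40 CPM (SD, n = 5) in combined libraries.

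Nos3, the endothelial nitric oxide synthase at chr5:24364810-24384474, had 14.8, 17.2, 11.04, 11.6 and 11.7 CPM in exercise and 8.38, 6.82, 9.71, 9.84 and 10.8 CPM in combined libraries. The groups were apart by a narrow gap, from 10.8 to 11.04 CPM. Nos3 was 1.45-fold lower (log2 -0.54, SE 0.14). Its exons overlap those of Atg9b and Gm15587 on the other strand, and strand use in the counting is not given in the sources used here.

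Sox17 had 4.50, 4.64, 6.66, 7.11 and 6.04 CPM in combined libraries, of which 2 lay below every exercise library, and was 1.74-fold lower (log2 -0.80, SE 0.21). Sox18, a related factor of vessel and lymphatic development, had 9.66 ± 2.04 CPM (SD, n = 5) in exercise and 6.30 ± 1.57 CPM (SD, n = 5) in combined libraries. Itm2a had 48.7, 48.5, 36.3, 50.6 and 44.4 CPM in exercise and 31.5, 31.9, 39.9, 36.2 and 36.2 CPM in combined libraries, with combined replicate 3 inside the exercise range. Nos3, Sox17, Sox18 and Itm2a each had an adjusted p of 0.131 in edgeR. Vwf had a larger fold and a wider spread, at 29.9 ± 9.37 CPM (SD, n = 5) and 15.5 ± 3.15 CPM (SD, n = 5).

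Without the 4 libraries with over 100 Ttr CPM, 21 members stood at an unadjusted p under 0.05 in this comparison, and the median was -0.361 with all 33 lower. Mural markers were lower for 14 of 14, with a median of -0.45, and the smooth muscle gene Acta2 averaged 24.3 CPM in exercise and 7.24 CPM in combined libraries. Fibroblast markers were lower for 10 of 10 (median -0.74; sums of 116 to 216 CPM in exercise and 84.3 to 152 in combined). The 4 erythroid markers measured were lower too (median -0.86; sums of 14.7 to 34.0 and 11.2 to 16.8 CPM). Dorsal midbrain genes were lower for 6 of 6 (median -1.19) and oligodendrocyte markers for 8 of 8 (-0.23). Choroid plexus markers were higher for 10 of 11 (median 1.08) and microglia markers for 8 of 10 (0.08). Choroid plexus markers summed to 386 CPM in combined replicate 5 and 30.0 to 45.5 CPM in the other combined libraries. In exercise libraries that sum was 29.7 to 44.5 CPM. Their part in the members' differences was not tested.

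In drug-treated mice, wheel access went with lower values for 28 of 33 members (combined against BCI-838), against 51.3% of all genes, with a median log2 fold change of -0.12. edgeR called none of the 33 and 0% of genes, and DESeq2 called none of the 33 and 1.49% of genes. limma voom called Itm2a and Lef1 among 5.12% of genes. At an unadjusted p under 0.05 there were 4 members, Lef1, Itm2a, Tek and Cdh5, all lower, with 6.84% of all genes past that limit and lower. That number was 8 without BCI-838 replicate 1 and 2 without BCI-838 replicate 2 or 3, exercise replicate 2, or combined replicate 1 or 2.

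Lef1, at chr3:131110471-131224356, had 12.7, 12.5, 13.0 and 17.9 CPM in BCI-838 libraries and 2.61, 6.54, 6.64, 5.06 and 3.80 CPM in combined libraries, so the groups were apart. It was 2.84-fold lower (log2 -1.51, SE 0.50), with an adjusted p of 0.207 in edgeR, and 0.0429 when only the 9 libraries compared were fitted. In the other groups Lef1 spread widely, from 4.60 to 13.5 CPM in controls, 4.81 to 17.6 in exercise and 4.90 to 39.5 in WT libraries. Lef1 is also made by neurons of the thalamus and midbrain, and the dorsal midbrain sums given above were likewise apart between BCI-838 and combined libraries. Their part in the Lef1 values was not tested.

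Itm2a had 40.3, 42.7, 48.2 and 45.1 CPM in BCI-838 libraries, all above the highest combined library at 39.9 CPM. It was 1.25-fold lower in combined libraries (log2 -0.33, SE 0.11), with an adjusted p of 0.207 in edgeR. Itm2a and Lef1 were the members whose groups did not overlap, and 3.94% of all genes had groups apart in that direction. Tek, the angiopoietin receptor Tie2, had 16.9 ± 2.08 CPM (SD, n = 4) in BCI-838 and 13.9 ± 2.55 CPM (SD, n = 5) in combined libraries, and Cdh5 and Nos3 came next by p. Nos3 had 8.93, 12.6, 12.0 and 11.1 CPM in BCI-838 libraries, within which replicate 1 lay inside the combined range. Mural markers were lower for 13 of 14 here (median -0.29), fibroblast markers for 10 of 10 (-1.02) and dorsal midbrain genes for 5 of 6 (-2.22). Microglia markers were higher for 10 of 10 (0.22) and choroid plexus markers for 9 of 11 (1.28). The choroid plexus sum was 34.2 to 44.1 CPM in BCI-838 libraries, and only combined replicate 5, at 386 CPM, was far above that. The part of all these cell types is considered jointly. Their part in the members' differences was not tested.

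The 2 wheel comparisons use no library in common. Between them, 28 of 33 members were higher with the wheel in the absence of the drug and lower with it in its presence, where 26.2% of all genes did so. Cd34, Sox7 and Slco1c1 were higher in both, and Ocln and Foxq1 went the other way round. The difference between the wheel effects, tested as the interaction of drug and wheel, was below 0 for 29 members, against 52.5% of all genes, with a median log2 value of -0.38. edgeR called no member and 0% of genes for the interaction, DESeq2 no member and 0.421%, and voom no member and 0%, and the smallest adjusted p of a member in edgeR was 0.272, for Itm2a. An unadjusted p under 0.05 was reached by 16 members, all below 0, where 4.23% of all genes were past that limit and below 0. Without the 4 libraries with over 100 Ttr CPM there were 8, with a median of -0.275.

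**Figure D5:**
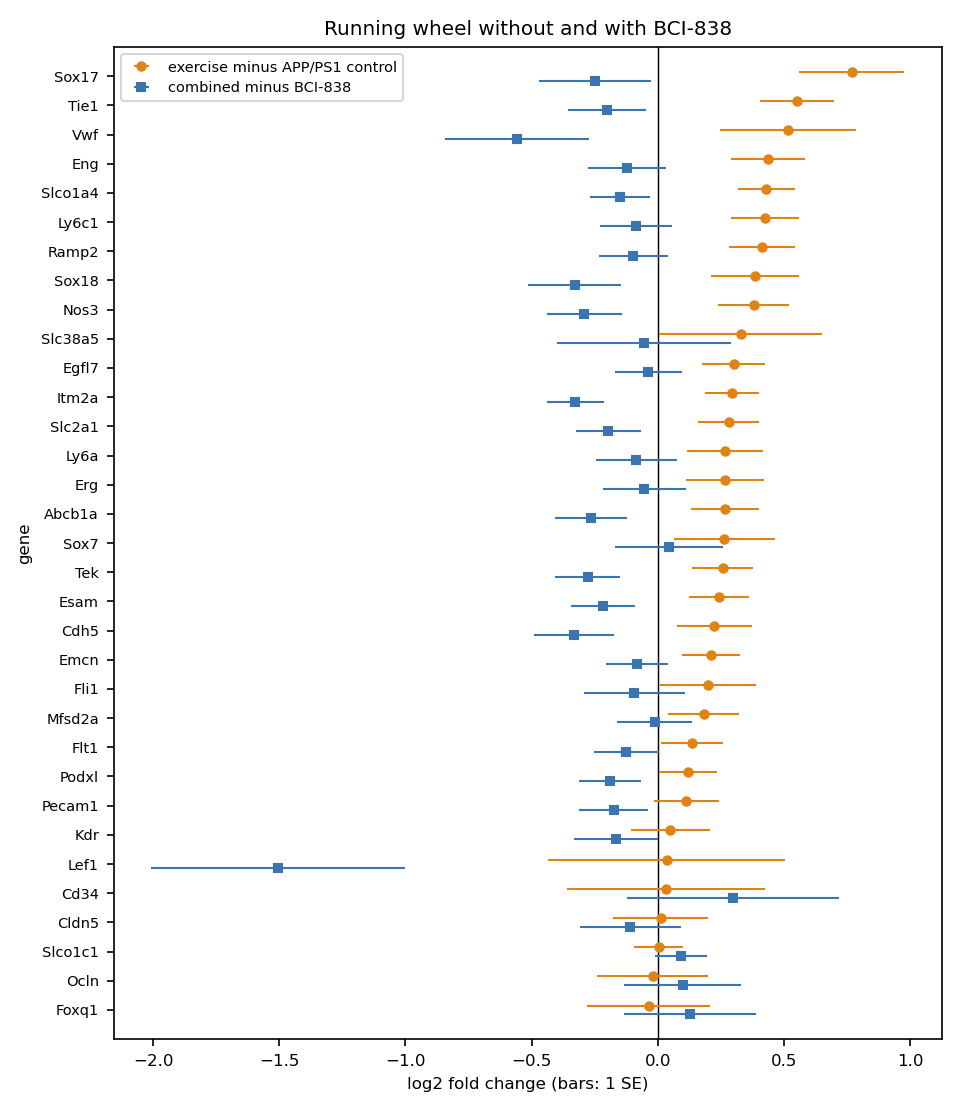
Log2 fold change of each member for the running wheel without BCI-838 (circles, exercise minus APP/PS1 control) and with it (squares, combined minus BCI-838), with bars of 1 SE. Circles lie to the right of 0 for 31 genes and squares to the left for 28.

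The members with the smallest interaction p were Itm2a (log2 -0.62, SE 0.15), Slco1a4 (-0.58, SE 0.16), Tie1 (-0.75, SE 0.21), Sox17 (-1.02, SE 0.30) and Nos3 (-0.67, SE 0.21). Their adjusted p ran from 0.272 to 0.365 in edgeR. By role, receptors were below 0 for 6 of 6, transporters for 5 of 6, junction and surface genes for 6 of 8 and transcription factors for 6 of 7. Mural markers were below 0 for 14 of 14, with a median of -0.51, and the 3 with the smallest p were the smooth muscle genes Cnn1 (-2.40), Myh11 (-2.16) and Acta2 (-2.41). Cnn1 was near the floor, with group means from 0.296 CPM in combined to 1.12 CPM in exercise libraries. Choroid plexus markers were above 0 for 10 of 11, with a median of 5.40, and dorsal midbrain genes were below 0 for 6 of 6 (-2.73). The part of these cells in the members' interaction was not tested.

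BCI-838 without a wheel, set against controls, gave higher values for 22 of 33 members, against 50.1% of all genes, with a median log2 fold change of 0.08. edgeR called none of the 33 and 0% of genes, DESeq2 called no member and 0.93%, and voom called Foxq1 among 2.64% of genes. At an unadjusted p under 0.05 there were 4 members (Abcb1a, Tek and Itm2a higher, Foxq1 lower), beside 10.2% of all genes. That number was 2 without control replicate 2 or 5 and 1 without BCI-838 replicate 3 or 4, or without the 4 libraries with over 100 Ttr CPM, where 16 members were higher. The median ran from 0.005, without BCI-838 replicate 2, to 0.119, without BCI-838 replicate 1. Mural markers were higher for 10 of 14 (median 0.23), astrocyte markers for 9 of 10 (0.18) and dorsal midbrain genes for 5 of 6 (1.45). Choroid plexus markers were lower for 10 of 11 (median -4.14) and granule neuron markers for 6 of 8 (-0.56). Their part in the members' differences was not tested.

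Foxq1, a forkhead factor enriched in barrier endothelium at chr13:31556134-31560976, was the member lowest against controls. It had 7.67, 10.2, 4.78, 6.71 and 11.6 CPM in controls and 3.99, 5.15, 4.31 and 4.13 CPM in BCI-838 libraries. In BCI-838, 3 of 4 libraries lay below every control, and replicate 2 lay above the lowest control, replicate 3. Foxq1 was 1.86-fold lower (log2 -0.90, SE 0.26), with an adjusted p of 0.239 in edgeR and 0.0242 in voom. Granule neuron markers summed to 400 to 1605 CPM in controls and 725 to 1045 CPM in BCI-838 libraries. The library lowest in Foxq1 was also lowest in that sum in WT, controls and exercise, but not in BCI-838 or combined. The part of granule neurons in the Foxq1 values was not tested. Abcb1a, the drug efflux pump P-glycoprotein, had 29.5 ± 5.02 CPM (SD, n = 5) in controls and 36.9 ± 6.35 CPM (SD, n = 4) in BCI-838 libraries. Slco1c1 had 48.8 ± 7.03 CPM (SD, n = 5) and 42.3 ± 2.76 CPM (SD, n = 4), with control replicate 5 at 61.4 CPM.

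Runners showed a like order for Foxq1, with 9.05, 6.68, 8.47, 5.64 and 10.1 CPM in exercise and 3.78, 7.18, 3.59, 4.61 and 4.84 CPM in combined libraries. There, combined replicate 2 lay inside the exercise range and the other 4 lay below it. With the drug averaged over wheel access, Foxq1 was 1.76-fold lower (log2 -0.81, SE 0.18), and 6 of the 9 libraries with drug lay below all 10 without it. Its adjusted p was 0.0519 in edgeR, just short of a call, 0.0023 in DESeq2 and 0.00384 in voom. In edgeR it was called with the stricter filter of 1 CPM in 5 libraries (0.0445), and without WT replicate 3, control replicate 3, exercise replicate 3, exercise replicate 4 or combined replicate 2 in turn, over a range of 0.0129 to 0.139. Exons of Foxq1 overlap those of A530084C06Rik on the other strand.

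In this averaged drug comparison edgeR called none of the 33 members and 0.301% of all genes. DESeq2 called Foxq1 among 3.68% of genes, and voom called Foxq1, Tie1, Cldn5, Ramp2 and Slco1c1 among 12%. Lower values were found for 29 of 33 members, against 53.3% of all genes, with a median of -0.15. The drug comparisons averaged here differ in direction. Without a wheel 22 members were higher (median 0.08), and in runners 32 were lower (median -0.36). Tie1 and Ramp2 stood at 0.04 and 0.05 without a wheel and at -0.71 and -0.46 in runners, while Foxq1, Cldn5 and Slco1c1 were lower in both. In the average, an unadjusted p under 0.05 was reached by 8 members, all lower, with 9.42% of all genes past that limit and lower. That number was 13 without exercise replicate 3, 3 without exercise replicate 1 and 5 without control replicate 5, exercise replicate 2 or combined replicate 1. Cldn5 was 1.32-fold lower on average (log2 -0.40, SE 0.14). Its libraries ran from 25.9 to 50.6 CPM in controls and 22.3 to 40.7 in BCI-838, and from 27.1 to 42.1 CPM in exercise and 18.1 to 35.3 in combined, with overlap in each case. Slc38a5, a glutamine and neutral amino acid transporter, had 5.57 ± 1.82, 4.41 ± 0.653, 6.99 ± 1.18 and 4.24 ± 1.69 CPM in control, BCI-838, exercise and combined libraries (SD, n = 5, 4, 5 and 5). Erythroid markers were lower for 4 of 4 (median -0.69), mural markers for 10 of 14 (-0.19), fibroblast markers for 7 of 10 (-0.36), choroid plexus markers for 10 of 11 (-1.32) and oligodendrocyte markers for 8 of 8 (-0.14). Granule neuron markers were lower for 6 of 8 (median -0.34), of which Calb1 was called by edgeR (log2 -1.18, SE 0.25, adjusted p 0.0419). The part of these cells in the members' differences was not tested.

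Both treatments together, against controls, gave 25 of 33 members lower, against 51.4% of all genes, with a median log2 fold change of -0.08. edgeR called none of the 33 and 0% of genes, DESeq2 no member and 0.449%, and voom no member and 0%. At an unadjusted p under 0.05 there were 3 members, all lower, Foxq1, Cldn5 and Lef1, beside 5.73% of all genes past that limit and lower, and 1 without control replicate 1. Foxq1 was 1.70-fold lower (log2 -0.77, SE 0.25; adjusted p 0.319 in edgeR). Cldn5 averaged 27.1 ± 6.22 CPM (SD, n = 5) in combined libraries against 37.1 ± 9.43 CPM (SD, n = 5) in controls, with overlap. Vwf and Cdh5 came next by p. The median was -0.202 without the 4 libraries with over 100 Ttr CPM and -0.051 without control replicate 1. Fibroblast markers were lower for 10 of 10 (median -1.08), choroid plexus markers for 11 of 11 (-2.63) and erythroid markers for 4 of 4 (-0.80). Dorsal midbrain genes were lower for 6 of 6 (median -0.77) and mural markers for 10 of 14 (-0.12). Microglia markers were higher for 9 of 10 (0.22). The part of all these cells in the members' differences was not tested.

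Untreated APP/PS1 mice and WT mice showed no consistent order over the members. Higher in APP/PS1 were 17 and lower 16, where 47.4% of all genes were higher, and the median log2 fold change was 0.01. edgeR called none of the 33 and 0.0109% of genes, no member had an unadjusted p under 0.05 (2.76% of all genes did), and no member was called by DESeq2 (0.0766%) or voom (0.0109%). The members with the smallest p were Lef1, Slco1c1, Ly6a, Ocln and Flt1, a VEGF receptor that also acts as a decoy. Lef1 averaged 15.4 ± 14.4 CPM (SD, n = 5) in WT and 10.1 ± 3.78 CPM (SD, n = 5) in controls, and its log2 fold change of -0.61 became 0.11 without WT replicate 2, which held 39.5 CPM. Choroid plexus markers were higher in controls for 11 of 11 (median 2.81) and fibroblast markers for 9 of 10 (0.21). Without the 4 libraries with over 100 Ttr CPM, 23 members were higher and the median was 0.128, with 1 at an unadjusted p under 0.05, as also without WT replicate 3. The median standard error of a member was 0.15 on the log2 scale, which sets the size of difference that could be seen here.

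Wheel access averaged over the drug gave 23 of 33 members higher, against 50.2% of all genes, with a median of 0.05. edgeR called none of the 33 and 0% of genes, 1 member (Lef1, lower) had an unadjusted p under 0.05 beside 4.55% of all genes lower at that limit, and no member was called by DESeq2 (0.0383%) or voom (0.00547%). Ly6c1 (0.17), Slco1a4 (0.14), Sox17 (0.26) and Ramp2 (0.16) had the next smallest p, with log2 fold changes given here. The number at that limit was 5 without exercise replicate 3 and between 0 and 2 without any other library. Microglia markers were higher for 10 of 10 (median 0.16), fibroblast markers were lower for 10 of 10 (-0.66), choroid plexus markers for 10 of 11 (-1.13) and dorsal midbrain genes for 5 of 6 (-0.86), and their part in the members' differences was not tested.

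Related endothelial and barrier pathways were read from lists of genes that are no members. The libraries are bulk tissue, so the values of these genes are not limited to vessels. For running without the drug, none of the 78 genes in 5 such lists was called, by edgeR. Among 21 further endothelial genes 16 were higher and 7 of these had an unadjusted p under 0.05, led by Gpr116 (log2 0.40), Nostrin (0.53) and Rasip1 (0.29). Among 18 further VEGF, angiopoietin and Notch genes 10 were higher, 3 at that limit, namely Acvrl1 (0.53), Flt4 (0.46) and Notch4 (0.34). Further Wnt and norrin genes of the barrier were higher for 9 of 15, further junction genes for 3 of 9 and further barrier transporters for 7 of 15. A separate list of peripheral, venous activation or fenestrated endothelium had 5 genes measured, and 5 were higher (median 0.21).

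For the drug in runners, 19 of 21 further endothelial genes were lower and 11 had an unadjusted p under 0.05, led by Rasip1 (log2 -0.51), Nostrin (-0.81) and Ushbp1 (-0.73). Of 18 VEGF, angiopoietin and Notch genes, 12 were lower and 7 of these were at that limit, with Acvrl1 (-0.61), Dll4 (-0.57) and Jag1 (-0.64) in the lead. Wnt and norrin genes were lower for 13 of 15, with 2 at that limit, and Apcdd1, Nkd1 and Axin2, which are targets of beta-catenin, had the smallest p (log2 -0.43, -0.40 and -0.33). Junction genes were lower for 6 of 9 and transporters for 7 of 15, among which Abcg2, another drug efflux pump, stood at -0.36. Of the 5 genes of peripheral, venous activation or fenestrated endothelium, 4 were lower (median -0.23). None of these genes was called by edgeR in this comparison. For the interaction, the same list was below 0 for 5 of 5 (median -0.36).

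Members also varied together from library to library within groups. Over the 528 pairs of members, the correlation of log2 CPM about the group means over 24 libraries had a median of 0.25 and was above 0 for 74.4% of pairs, as a description of values that share their library and its cell makeup. Nos3 had the highest median with the other members (0.52), followed by Eng and Cdh5 (0.45 each) and Podxl (0.44), a sialomucin of the vessel lumen. Mfsd2a, the lipid transporter that limits vesicle traffic at the barrier, had the lowest (-0.19), next to Foxq1 (-0.09) and Ocln (-0.01). The widest spread within groups was that of Lef1, with an SD of 68.1% of the mean, Cd34 (49.97%) and Slc38a5 (32.9%). Cd34, a sialomucin also found on blood progenitors, ran from 11.7 to 64.2 CPM in controls, and from 15.6 to 74.0 CPM in WT, against 24.9 to 27.7 CPM in BCI-838 libraries.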

How the data were processed

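Whole-number read counts per gene for 24 libraries were deposited by the authors in 1 table, with a column for each library. Reads were handled with STAR, HTSeq and DESeq on mm10, per the submitters' processing notes. Tool versions, annotation and strand setting are not stated there. A second deposited table of normalised values was not used. Totals ranged from 48656360 to 64632882 counts per library, and no 2 libraries agreed within sampling noise. The labels give groups and replicate numbers, and p-values measure the spread between these libraries.

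Counts of the 18286 genes kept by filterByExpr (minimum count 10, minimum total 15) were scaled by TMM and fitted in 1 model over all libraries with edgeR 4.0.16 in R 4.3.3 (robust quasi-likelihood F test). P-values were adjusted by Benjamini-Hochberg over all genes in each of 9 comparisons, and a gene was called under 0.05. The standard error is the size of a log2 fold change divided by the root of its F. Levels are given as CPM with the SD over libraries. Exon lengths and gene positions came from GENCODE M21 (GRCm38). The fit was tested on simulated counts.

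The 33 members and all gene lists were chosen with earlier results of these data known. In each comparison the text names any member called and the 5 with the smallest p, and names from the other lists any gene called and otherwise genes among the 3 with the smallest p. Members, and Ttr and Prox1 as tissue checks, may be named for their level. Each comparison was repeated with DESeq2 1.42.0, with limma 3.58.1 voom and quality weights, with a replicate block, with size factors from DESeq2, with no filter or at least 1 CPM in 5 libraries, on the compared groups only, without each library in turn, and without the 4 whose Ttr exceeded 100 CPM. Exons overlap another gene on the opposite strand for Eng (Fpgs), Egfl7 (Agpat2), Nos3, Foxq1, Sox17 (Gm37587), Lef1 (Gm43352), Abcb1a (Gm42686), Slc2a1 (Gm12868) and Cd34 (Gm16897), and on the same strand for Ramp2 (Vps25) and Egfl7 (Gm20532), so their counts are uncertain. Hbb-bt was not matched in the table, and Selp, Sele and En1 did not pass the filter.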

Additional observations from a re-analysis of the deposited data

Results flagged for a closer look

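In 5 of 100 sets of a member in 1 group, a library stood apart from the rest by more than Dixon's 95% limit allows, and chance gives about 1 in 20. The sets cover only members that were among the 5 with the smallest p of a comparison, so that rate is a rough guide. Flt1 had 30.2 CPM in combined replicate 2, against 41.0 to 45.1 CPM in the other 4. Itm2a had 44.8 CPM in control replicate 1, against 34.1 to 36.1 CPM. Lef1 had 17.9 CPM in BCI-838 replicate 4, against 12.5 to 13.0 CPM. Control replicate 5, which is among the libraries with over 100 Ttr CPM, stood above the other controls for both Slco carriers, with 50.7 CPM of Slco1a4 against 37.7 to 39.4 CPM and 61.4 CPM of Slco1c1 against 45.3 to 46.3 CPM.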

How the results depend on the processing

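For the drug in runners, 7 members were called by DESeq2, 11 by voom and between 0 and 8 when a library was left out. For the drug averaged over the wheel, the number was 1 with the filter of 1 CPM in 5 libraries, 1 with DESeq2, 5 with voom, 1 with the replicate block and between 0 and 1 with a library left out. For the drug alone voom called 1 member, and for the wheel in drug-treated mice voom called 2 and the fit of the compared libraries called 1 (Lef1). The interaction median was -0.509 in voom, and this was the median that moved by more than 0.122, the SD of the libraries' medians within groups. Medians near 0 changed sign: that for the genotype ran from -0.045 to 0.054 with a library left out, and that for the drug alone was -0.001 without the libraries with over 100 Ttr CPM. For the genotype, Ocln went to -0.25 and Flt1 to 0.048 without the libraries with over 100 Ttr CPM, and Lef1 ran from -0.84 to 0.11 with a library left out. The cause was not tested. Over all genes, edgeR, DESeq2 and voom called 55, 608 and 2193 for the averaged drug comparison, 0, 364 and 1012 for the drug in runners, 0, 256 and 936 for the wheel in drug-treated mice, 0, 170 and 483 for the drug alone, 1, 61 and 0 for the wheel alone, 0, 82 and 0 for both treatments, 0, 77 and 0 for the interaction, 0, 7 and 1 for the averaged wheel comparison and 2, 14 and 2 for the genotype. The compared libraries alone gave 111 calls for the wheel in drug-treated mice, 9 for the drug alone and 17 for the averaged drug comparison, which had 96 with the 1 CPM filter, 38 with no filter and 0 without the libraries with over 100 Ttr CPM. The drug in runners had 400 without exercise replicate 3. Same-numbered libraries did not vary together, as 10 of 46 pairs had a correlation over 0.1 with a median of -0.006, and 6 of 24 libraries correlated best with their own number. The block gave 59 calls over all genes for the averaged drug comparison, where Foxq1 had an adjusted p of 0.0437, and it changed no other call of a member. The lowest value of a member was Sox7 at 0.965 CPM in WT replicate 2, and counting error was not separated from the spread between libraries.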
